A study of Mus musculus with 6 samples.

Results

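The genes described here are those of the WNT pathway's outer layer. They are the WNT ligands, their Frizzled and LRP receptors, the R-spondin branch and the secreted antagonists. The scaffold genes Axin1 and Axin2 and the transcription factor gene Lef1 are also included. All were chosen by name, as every symbol of the Wnt, Fzd, Dkk and Sfrp families plus a list of 14 further genes. The rule uses no measured value, but it was written with earlier results of these data known. Of 19938 genes measured, 51 were members. Tcf7, which the list also names, was not analysed here. The name rule also took in Fzd10os, a transcript from the strand opposite Fzd10. Each gene was read by its brightest probe set over all arrays, and Wnt4 alone had more than 1.

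WNT proteins are secreted lipid-modified signals. PORCN attaches the lipid in the endoplasmic reticulum, and the carrier WLS takes the ligand to the cell surface. There it binds a Frizzled receptor together with LRP5 or LRP6, which stops the AXIN and APC complex from destroying beta-catenin, so that beta-catenin can act with TCF and LEF factors on target genes. R-spondins, through LGR receptors, hold back ZNRF3 and RNF43, the ubiquitin ligases that remove Frizzled from the membrane, while DKK, SFRP and WIF proteins block the ligand or its receptor. In the mammary gland WNT signalling is known for its part in ductal growth and stem cell maintenance.

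The data were 6 Affymetrix arrays of 4T1, a mouse mammary carcinoma line, with 3 arrays from dishes kept for 16 h in medium with 500 nM TKI258 and 3 from dishes kept with its vehicle DMSO. Each array came from a dish of its own, with 10% serum in both groups and the agent added 24 h after seeding. TKI258, or dovitinib, blocks several receptor tyrosine kinases, among them those for FGF, VEGF and PDGF, and was tested in 1 cell line, at 1 dose and 1 time.

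Arrays of a group correlated at 0.997 to 0.998 over all genes and arrays of different groups at 0.988 to 0.990, and no array stood apart. The median signal of an array was 4.97 to 5.04 log2 units. The labelled cell type was read from markers. Of 16 epithelial markers 4 had a mean below that of the median probe set, against 6 of 11 fibroblast, 9 of 12 macrophage and 9 of 10 endothelial markers. The summed linear signal of the fibroblast markers was 599 to 633 on DMSO arrays and 1216 to 1296 on TKI258 arrays, where Pdgfra and Dcn rose and the other 9 did not pass. For endothelial markers it was 473 to 495 and 590 to 619, with Eng the 1 of 10 that rose. For macrophage markers it was 380 to 407 and 376 to 484, with 2 of 12 higher and 3 lower, and for epithelial markers 8376 to 9176 and 8244 to 8854, with 8 of 16 higher and 3 lower. The part of these markers in the results below was not tested. On such arrays fewer cells of a type and less RNA per cell cannot be told apart.

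After TKI258, 11 of the 51 WNT genes rose, 2 fell and 38 did not pass, by limma at a Benjamini-Hochberg adjusted p below 0.05 over all genes. The genes that rose were the acyltransferase gene Porcn, the receptor genes Lgr4, Fzd1, Fzd2, Fzd5, Fzd6 and Fzd7, the ligand genes Wnt10a and Wnt10b, the ubiquitin ligase gene Rnf43 and the antagonist gene Sfrp1. The genes that fell were the ligand gene Wnt7b and the ubiquitin ligase gene Znrf3. The 13 called members were 25.5% of the 51, against 27% of all genes, so the share called was near that of the array as a whole. Those that rose were 21.6% of members against 14.4% of all genes, and those that fell 3.92% against 12.6%. With each array centred on its median, 11 members rose and 4 fell, while of all genes 2497 rose and 2622 fell, against 2866 and 2519 before. Without TKI258 replicate 1, 9 members rose and 4 fell, and of all genes 2705 and 2243. The groups did not overlap in 21 members, 41.2% against 40.2% of all genes. The median log2 change of the members was 0.07, against 0.01 for all genes.

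**Figure D1:**
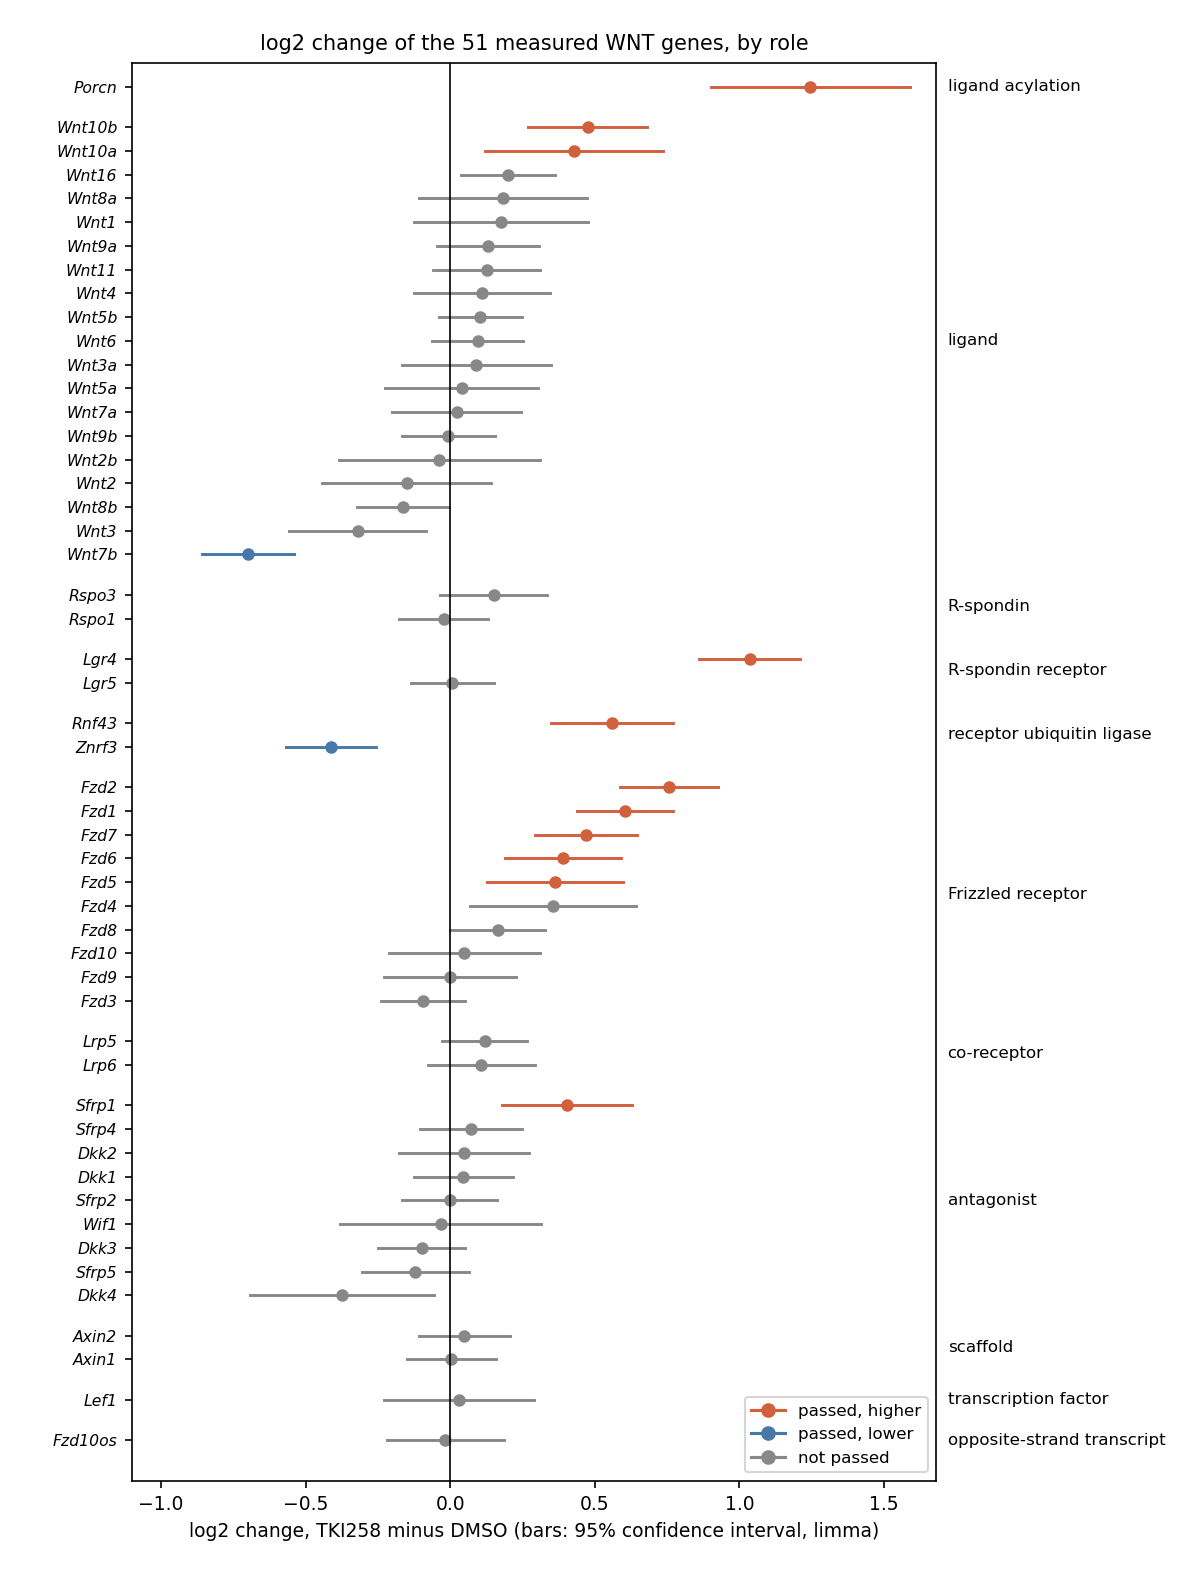
Log2 change (TKI258 minus DMSO, horizontal axis) of each of the 51 measured WNT genes, grouped by role, with the 95% confidence interval of the limma fit on 3 arrays per group. Red marks the 11 genes that rose, blue the 2 that fell and grey the 38 that did not pass; Porcn at 1.25 and Lgr4 at 1.04 lie farthest to the right and Wnt7b at -0.70 farthest to the left.

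Signal strength went with the calls. Of the 51 members 26 had a mean below that of the median probe set, and 1 of these, Rnf43, passed, which is 3.85% against 4.85% of all genes as dim. Of the 25 brighter members 12 passed, 48% against 44.2% of the brighter genes. The table has no detection calls, so a dim member cannot be called absent, and a change in it would be harder to detect.

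The ligand-processing step held the largest change among members. Porcn signal was 5.25, 5.49 and 5.14 log2 units on the DMSO arrays and 6.20, 6.58 and 6.83 on the TKI258 arrays. Every TKI258 array was above every DMSO array, and the TKI258 arrays were the more spread. The log2 change was 1.25 (SE 0.15, adjusted p = 0.000302 in limma), or 2.37-fold. Wls, which encodes the carrier of the acylated ligand and is not a member, rose by 0.74 (SE 0.06, adjusted p = 4.14e-05), from 9.91 ± 0.02 (SD, n = 3) to 10.65 ± 0.06.

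Of the 19 ligand genes 2 rose, 1 fell and 16 did not pass, so that 15.8% were called against 27% of all genes. Wnt7b, a ligand known from lung and mammary epithelium that signals through beta-catenin, was at 8.23, 8.19 and 8.36 with DMSO and 7.51, 7.57 and 7.60 with TKI258. The groups lay far apart relative to their spread, and the log2 change was -0.70 (SE 0.07, adjusted p = 0.000100 in limma), or 0.616 times the DMSO level. Wnt10b, a beta-catenin ligand known for driving mammary tumours in transgenic mice, was at 6.05, 5.85 and 6.17 with DMSO and 6.47, 6.42 and 6.59 with TKI258. The TKI258 arrays were all above the DMSO arrays, with a log2 change of 0.48 (SE 0.09, adjusted p = 0.00389). Wnt10a, its closest relative among the ligands, was at 6.53, 6.59 and 6.96 with DMSO and 7.32, 7.14 and 6.89 with TKI258. Here the groups overlapped, since TKI258 replicate 3 was below DMSO replicate 3. The log2 change of Wnt10a was 0.43 (SE 0.14, adjusted p = 0.0442). It no longer passed when any of 4 arrays was omitted: the adjusted p was 0.146 with DMSO replicate 1 omitted, 0.134 with DMSO replicate 2, 0.136 with TKI258 replicate 1 and 0.102 with TKI258 replicate 2 omitted. All 17 alternatives together spanned 0.0120 to 0.734.

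The other 16 ligand genes had log2 changes from -0.32 to 0.20, and 9 of them had a mean below that of the median probe set. Wnt3 had the smallest adjusted p among them (0.0509), at 4.86, 5.05 and 4.82 with DMSO and 4.80, 4.56 and 4.42 with TKI258. Its groups did not overlap, and the log2 change was -0.32 (SE 0.10). Wnt3 passed in 5 of 16 alternatives, with adjusted p from 0.0116, without TKI258 replicate 1, to 0.999999, against a fold of 1.2. Wnt7a, the closest relative of Wnt7b, had a log2 change of 0.02 (95% confidence interval -0.20 to 0.25) beside the -0.70 of Wnt7b, and the difference between them was not tested. Wnt5a, which mostly signals without beta-catenin, had a log2 change of 0.04 and Wnt5b of 0.10, and neither passed.

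Some ligand genes sit side by side in the mouse genome. In the RefSeq gene table of GRCm38.p6 the pairs Wnt6 and Wnt10a, Wnt1 and Wnt10b, Wnt3 and Wnt9b, and Wnt3a and Wnt9a have 0 protein-coding gene starts between them. Wnt10a and Wnt10b rose, while their neighbours Wnt6 and Wnt1 had log2 changes of 0.10 (95% confidence interval -0.06 to 0.25) and 0.17 (-0.13 to 0.48) and did not pass. In the other 2 pairs no gene passed. Differences within a pair were not tested.

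The Frizzled receptor genes were the group of members with the most rises. Of 10 measured 5 rose, 0 fell and 5 did not pass, against 14.4% of all genes that rose and 12.6% that fell. Only 2 of the 10 had a mean below that of the median probe set, and of genes brighter than it 23.0% rose and 21.2% fell. A log2 change above 0 was found in 9 Frizzled genes, in Fzd9 at 0.0007, and in 53.8% of all genes. The median log2 change of the Frizzled genes was 0.36, against 0.01 for all genes. Their groups did not overlap in 8, against 40.2% of all genes and 60.5% of those brighter than the median probe set. Among these 8, Fzd3 had its TKI258 arrays below its DMSO arrays. Leaving out each array in turn gave 4 or 5 rises and 0 falls.

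Fzd2 was at 7.67, 7.60 and 7.77 log2 units with DMSO and 8.37, 8.54 and 8.41 with TKI258, a log2 change of 0.76 (SE 0.08, adjusted p = 9.20e-05 in limma). Fzd1 was at 7.23, 7.09 and 7.16 with DMSO and 7.82, 7.82 and 7.66 with TKI258, a change of 0.60 (SE 0.07, adjusted p = 0.000283). Fzd7 was at 9.05, 8.90 and 8.92 with DMSO and 9.37, 9.55 and 9.36 with TKI258, a change of 0.47 (SE 0.08, adjusted p = 0.00171). In all 3 genes every TKI258 array was above every DMSO array by more than the spread within either group. Fzd1, Fzd2 and Fzd7 form a closely related subfamily of receptors, so their probes may read more than 1 of them, and probe sequences were not analysed here.

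Fzd6, a receptor that is known from planar polarity, was at 9.97, 9.78 and 9.70 with DMSO and 10.27, 10.25 and 10.09 with TKI258. The groups did not overlap, although DMSO replicate 1 and TKI258 replicate 3 lay close, and the log2 change was 0.39 (SE 0.09, adjusted p = 0.00915). Fzd5 was at 6.35, 6.44 and 6.26 with DMSO and 6.93, 6.54 and 6.66 with TKI258, with a change of 0.36 (SE 0.10, adjusted p = 0.0291). Fzd5 missed the threshold when DMSO replicate 1 was omitted (adjusted p = 0.0762), and likewise for DMSO replicate 3 (0.104), TKI258 replicate 1 (0.0640) and TKI258 replicate 3 (0.0530), with 0.0134 to 0.978 spanned by the 17 alternatives.

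Among the Frizzled genes that did not pass, Fzd4 had a log2 change as large as that of Fzd5, at 0.36 (SE 0.13, adjusted p = 0.0689). Its DMSO arrays were spread, at 5.50, 4.93 and 5.25, and its TKI258 arrays were at 5.60, 5.64 and 5.50. The groups did not overlap, and without DMSO replicate 1 it passed (adjusted p = 0.0113, in a range of 0.0113 to 0.999999 over 17 alternatives). Fzd3, the closest relative of Fzd6, was at 7.57, 7.64 and 7.57 with DMSO and 7.48, 7.56 and 7.46 with TKI258, a change of -0.10 (95% confidence interval -0.24 to 0.05). Fzd8, Fzd9 and Fzd10 had changes of 0.16, 0.00 and 0.05. The LRP co-receptors, which bind the ligand beside Frizzled, did not pass either: Lrp5, at 8.68, 8.62 and 8.67 with DMSO and 8.74, 8.85 and 8.73 with TKI258, had a log2 change of 0.12 (95% confidence interval -0.03 to 0.27). Its groups did not overlap but lay close, and Lrp6 had a change of 0.11 (-0.08 to 0.29).

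**Figure D2:**
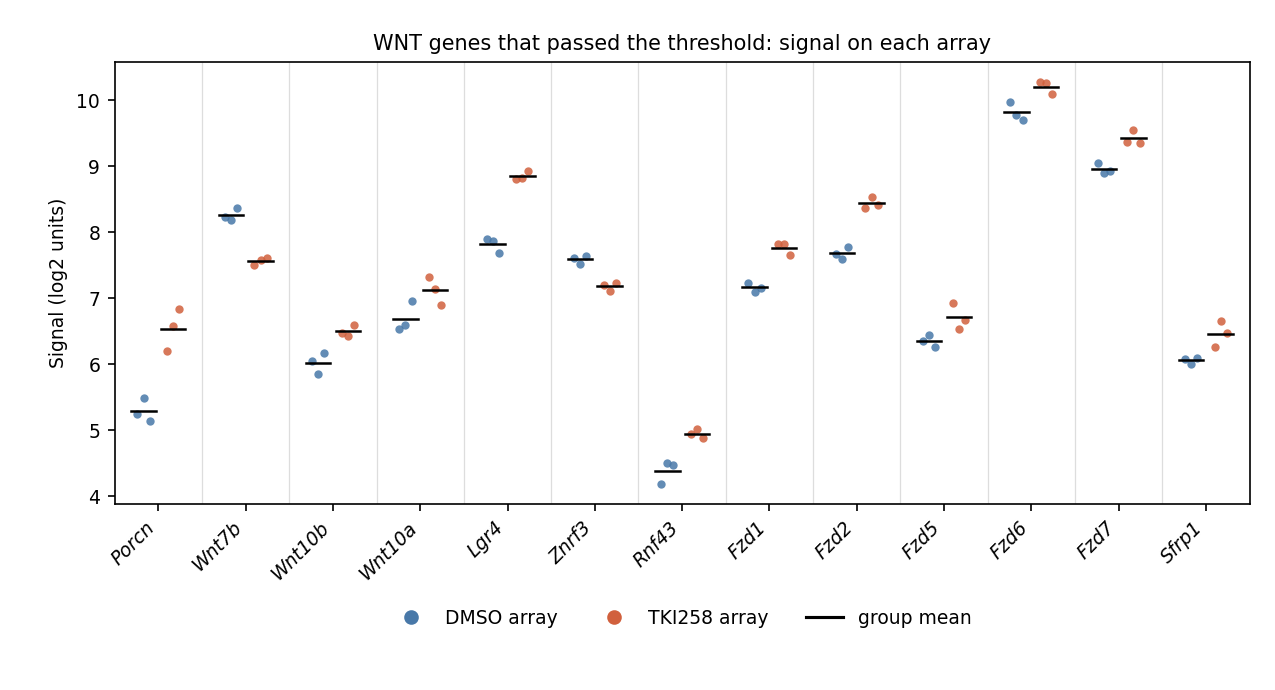
Signal in log2 units (vertical axis) of the 13 WNT genes that passed, on each of the 3 DMSO arrays (blue) and 3 TKI258 arrays (red), with black bars for group means. The groups are apart in all of them but Wnt10a, and heights are not comparable between genes, since each has its own probes.

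In the R-spondin branch the receptor gene Lgr4 rose most. Lgr4 was at 7.89, 7.87 and 7.68 with DMSO and 8.80, 8.83 and 8.92 with TKI258. The groups were far apart, with a log2 change of 1.04 (SE 0.08, adjusted p = 1.94e-05 in limma), or 2.05-fold. Lgr5, a related receptor and a stem cell marker of the gut, was at 3.81, 3.78 and 3.72 with DMSO and 3.75, 3.75 and 3.83 with TKI258, with overlapping groups and a change of 0.01 (95% confidence interval -0.14 to 0.15). Lgr6, the third receptor of that family and no member, fell by 0.57 (SE 0.08, adjusted p = 0.000496), from 8.13 ± 0.10 (SD, n = 3) to 7.55 ± 0.08. The ligand genes Rspo1 and Rspo3 did not pass, at changes of -0.02 and 0.15. Like Lgr5, they had means below that of the median probe set.

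The ubiquitin ligase genes that R-spondins hold back went in opposite directions. Znrf3 was at 7.61, 7.51 and 7.64 with DMSO and 7.20, 7.11 and 7.23 with TKI258, and fell by 0.41 on the log2 scale (SE 0.07, adjusted p = 0.00171). Rnf43 was at 4.19, 4.51 and 4.47 with DMSO and 4.94, 5.02 and 4.88 with TKI258, and rose by 0.56 (SE 0.09, adjusted p = 0.00173). The groups did not overlap in either gene. Both kept their call with each array left out, and both lost it in a test against a fold of 1.2 (adjusted p = 0.218 and 0.0557, the highest of ranges that start at 0.000475 and 0.000794). The mean of Rnf43 was below that of the median probe set.

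Of the 9 antagonist genes 1 rose, 0 fell and 8 did not pass, which is 11.1% called against 27% of all genes. Those 8 all had means below that of the median probe set, where 4.85% of all genes were called. Sfrp1, a secreted decoy that binds WNT ligands, was at 6.08, 5.997 and 6.10 with DMSO and 6.26, 6.66 and 6.47 with TKI258. The DMSO arrays were close together and all below the TKI258 arrays, with a log2 change of 0.40 (SE 0.10, adjusted p = 0.0141). Sfrp1 missed the threshold when DMSO replicate 2 was omitted (adjusted p = 0.0534 in limma), and its 17 alternatives spanned 0.00279 to 0.580. Dkk4, an LRP blocker, was at 4.35, 4.55 and 4.25 with DMSO and 4.24, 3.68 and 4.11 with TKI258, a change of -0.37 (SE 0.14, adjusted p = 0.0843). It passed without TKI258 replicate 1 (adjusted p = 0.0358, in a range of 0.0322 to 0.999999 over 16 alternatives). Dkk1, Dkk2, Dkk3, Sfrp2, Sfrp4, Sfrp5 and Wif1 had changes from -0.12 to 0.07.

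The scaffold genes Axin1 and Axin2 and the transcription factor gene Lef1 did not pass. Axin2, a destruction complex scaffold that beta-catenin itself induces and the usual readout of the pathway, was at 4.21, 4.27 and 4.15 with DMSO and 4.33, 4.27 and 4.17 with TKI258. The groups overlapped, with a log2 change of 0.05 (95% confidence interval -0.11 to 0.21, adjusted p = 0.693). Axin1, the constitutive scaffold, had a change of 0.00 (-0.15 to 0.16). Lef1 was at 4.94, 4.96 and 4.55 with DMSO and 4.95, 4.72 and 4.87 with TKI258, a change of 0.03 (-0.23 to 0.29). Fzd10os had a change of -0.02. The means of Axin2, Lef1 and Fzd10os were below that of the median probe set, where 4.85% of all genes were called.

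Promoter sequence is shown for 4 receptor genes that rose, Lgr4, Fzd1, Fzd5 and Fzd7, and for 2 members whose promoter held the TCF/LEF letters and whose signal did not pass, Dkk1 and Wnt11. Each run is the 250 bases before the annotated start in RefSeq, build GRCm38.p6, read 5′ to 3′ along the gene's strand. Capitals mark matches, on either strand, to TCF/LEF letters (CTTTGAT or CTTTGAA), AP-1 letters (TGANTCA), FOXO letters (TGTTTAC), ETS letters (CCGGAAG), the CCAAT box (CCAAT) and the TATA box (TATAAA).
Lgr4: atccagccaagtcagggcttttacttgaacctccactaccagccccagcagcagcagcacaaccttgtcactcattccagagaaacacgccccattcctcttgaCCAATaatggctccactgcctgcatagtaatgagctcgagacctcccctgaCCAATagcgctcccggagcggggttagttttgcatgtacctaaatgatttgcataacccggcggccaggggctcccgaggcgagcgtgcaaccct
Fzd1: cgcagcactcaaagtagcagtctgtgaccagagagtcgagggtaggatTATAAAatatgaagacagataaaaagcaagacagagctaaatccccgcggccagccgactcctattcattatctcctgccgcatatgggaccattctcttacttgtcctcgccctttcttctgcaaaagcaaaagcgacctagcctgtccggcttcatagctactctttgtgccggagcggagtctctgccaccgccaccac
Fzd5: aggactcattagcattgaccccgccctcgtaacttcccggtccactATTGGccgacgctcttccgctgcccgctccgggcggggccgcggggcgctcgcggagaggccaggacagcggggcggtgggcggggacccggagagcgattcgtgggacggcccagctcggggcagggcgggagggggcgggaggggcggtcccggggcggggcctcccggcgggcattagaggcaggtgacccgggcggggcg
Fzd7: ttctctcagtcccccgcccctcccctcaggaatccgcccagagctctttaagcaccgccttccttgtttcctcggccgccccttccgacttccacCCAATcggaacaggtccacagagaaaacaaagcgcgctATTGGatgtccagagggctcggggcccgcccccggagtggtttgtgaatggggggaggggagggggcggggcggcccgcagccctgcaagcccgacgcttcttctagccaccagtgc
Dkk1: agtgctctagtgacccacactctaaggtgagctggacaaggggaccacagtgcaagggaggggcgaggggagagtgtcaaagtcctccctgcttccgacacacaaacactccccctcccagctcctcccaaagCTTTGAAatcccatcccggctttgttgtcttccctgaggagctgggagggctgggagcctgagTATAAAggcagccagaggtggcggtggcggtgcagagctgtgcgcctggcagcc
Wnt11: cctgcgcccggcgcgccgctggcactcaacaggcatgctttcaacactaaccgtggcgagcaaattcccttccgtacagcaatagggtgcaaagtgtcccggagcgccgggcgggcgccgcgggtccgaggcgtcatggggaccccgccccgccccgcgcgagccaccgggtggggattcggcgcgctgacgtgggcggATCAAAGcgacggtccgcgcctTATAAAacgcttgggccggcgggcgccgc
They lie at chr2:109917397-109917646 (plus strand), chr5:4758217-4758466 (minus), chr1:64737751-64738000 (minus), chr1:59481897-59482146 (plus), chr19:30549497-30549746 (minus) and chr7:98834862-98835111 (plus), in the order printed, and are upstream of the transcript. Wnt11 has a further annotated start, whose promoter is not shown.

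Among the capitals, Lgr4 carries the CCAAT box at 2 places on its own strand and Fzd7 at 1 place on each strand. Fzd5 has it once on the other strand. Fzd1 has the letters TATAAA, starting at base -202 relative to the start, which is a match of letters only. Dkk1 and Wnt11 have the TCF/LEF letters, starting at bases -117 and -51 relative to the start, and the letters TATAAA, at -54 and -29. Over the 300-base windows of the table, which run 50 bases past the start, 31 members matched by symbol with 38 promoters. TCF/LEF letters were in 3 of the 38, those of Dkk1, Wnt11 and Wnt5b, and in 8.65% of all 32851 promoters. Of the 13 members that passed, 6 had a promoter in the table, and 0 of these held TCF/LEF letters. Only CTTTGAT and CTTTGAA were searched, so a TCF/LEF site spelled otherwise would be missed. AP-1 letters were in 1 of the 38 and 7.81% of all, FOXO letters in 0 and 3.65%, ETS letters in 2 and 8.86%, CCAAT in 13 and 37.4%, and TATAAA in 6 and 13.6%. The motifs do not overlap each other in the printed runs. Dkk1 had a log2 change of 0.05 (95% confidence interval -0.13 to 0.22) and Wnt11 of 0.13 (-0.06 to 0.31). A match describes letters in this window only.

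The rest of the pathway was read from 6 lists of 158 measured genes, 8 of them also members. The lists were written with earlier results of these data known, so their shares of called genes may reflect that choice. Of the 158 genes 36 rose and 18 fell, or 22.8% and 11.4%, against 14.4% and 12.6% of all genes. Of the 158, 118 were brighter than the median probe set, and of all genes as bright 23.0% rose and 21.2% fell. Among 10 secretion and processing genes 3 rose and 1 fell, 40% called against 27% of all genes, with a median log2 change of 0.10. All 10 were brighter than the median probe set, where 44.2% of genes were called. Beside Porcn and Wls, the vacuolar pump accessory gene Atp6ap2 rose by 0.31 (adjusted p = 0.0238), while the cargo receptor gene Tmed5 fell by 0.84 (SE 0.07, adjusted p = 3.90e-05), at 8.12 ± 0.04 (SD, n = 3) with DMSO and 7.29 ± 0.10 with TKI258. Atp6ap2 missed the threshold when DMSO replicate 1, or DMSO replicate 2, or TKI258 replicate 3 was omitted, by adjusted p in limma (0.0899, 0.0746 and 0.0554, where the 17 alternatives spanned 0.00293 to 0.999999).

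Of 18 further antagonists and modulators 1 rose and 2 fell, 16.7% called against 27% of all genes, with a median of 0.01. Of the 18, 9 had a mean below that of the median probe set, where 4.85% of all genes were called. Apcdd1, a membrane inhibitor of WNT signalling and itself a beta-catenin target, was at 8.64, 8.53 and 8.88 with DMSO and 6.86, 6.64 and 6.59 with TKI258. It fell by 1.99 on the log2 scale (SE 0.11, adjusted p = 3.45e-06), farther than any of the 51 members moved. Notum, which encodes an enzyme that strips the lipid from WNT ligands, was at 6.29, 6.26 and 6.31 with DMSO and 6.80, 7.04 and 7.35 with TKI258, and rose by 0.78 (SE 0.12, adjusted p = 0.00120). The DMSO arrays of Notum lay close together and all below the TKI258 arrays. Lgr6 was the other gene of this list that fell.

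Of 29 genes for beta-catenin and its turnover 8 rose and 1 fell, with a median of 0.09. The share called, 31.0%, was near the 27% of all genes. It was below the 44.2% of genes brighter than the median probe set, and only 2 of the 29 were dimmer than that. Ctnnb1, the beta-catenin gene, was at 11.65, 11.69 and 11.71 with DMSO and 12.21, 12.16 and 12.22 with TKI258. Its groups lay far apart relative to their spread, and it rose by 0.51 (SE 0.06, adjusted p = 0.000243). The ubiquitin ligase gene Btrc rose by 0.36, the Dishevelled genes Dvl3 and Dvl1 by 0.39 and 0.25, and the GSK3-binding gene Frat1 by 0.38, while the casein kinase gene Csnk1g3 fell by 0.23. Counts here were sensitive to single arrays, with 4 to 6 rises and 0 or 1 falls when each was left out, against 8 and 1. The list had 4 called genes when DMSO replicate 1 or 2 was omitted and 5 when TKI258 replicate 1 or 3 was, against 9 on all arrays. With median centring 5 rose and 1 fell. Csnk1g3 lost its call without each array except TKI258 replicate 2 (adjusted p from 0.0569 to 0.0947). Dvl1 lost it without DMSO replicates 1 and 2 and TKI258 replicates 1 and 3 (0.0554 to 0.0982) and with median centring, and Frat1 without DMSO replicate 1 (0.0730).

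Of 22 transcription factor and cofactor genes 8 rose and 1 fell, 40.9% called against 27% of all genes, with a median of 0.18. Only 3 of the 22 had a mean below that of the median probe set, and 44.2% of genes brighter than it were called. Hbp1, a repressor of TCF factors, rose by 0.98 (SE 0.08, adjusted p = 3.39e-05), from 9.57 ± 0.10 (SD, n = 3) to 10.55 ± 0.11. The Groucho co-repressor genes Tle3, Tle2 and Tle4 rose by 0.72, 0.70 and 0.42, while Tle1 fell by 0.27 (adjusted p = 0.0369). Tle1 kept its call with TKI258 replicate 1 omitted (adjusted p = 0.00598) and lost it with any other array omitted: DMSO replicates 1, 2 and 3 (0.118, 0.0910 and 0.0765) or TKI258 replicates 2 and 3 (0.116 and 0.102). Its 17 alternatives spanned 0.00598 to 0.999999. Tcf7l1, a TCF factor that mostly represses, rose by 0.55 (SE 0.09, adjusted p = 0.00131), and the beta-catenin co-activator genes Bcl9l and Bcl9 by 0.50 and 0.35. Tcf7l2 had a change of 0.06 (95% confidence interval -0.08 to 0.20) and did not pass.

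Beta-catenin target genes went both ways. Of 43 measured 10 rose and 11 fell, 48.8% called against 27% of all genes, with a median of 0.03. Of the 43, 17 had a mean below that of the median probe set, and 44.2% of genes brighter than it were called. Ccn4, a matricellular target, was at 5.76, 5.86 and 5.74 with DMSO and 7.68, 7.79 and 7.76 with TKI258, and rose by 1.96 (SE 0.07, adjusted p = 5.98e-07), or 3.88-fold. The TNF receptor family gene Tnfrsf19 rose by 1.65 (SE 0.07, adjusted p = 1.00e-06). In both genes the TKI258 arrays lay far above the DMSO arrays. Fosl1, an AP-1 subunit gene, fell by 1.92 (SE 0.10, adjusted p = 3.09e-06), the urokinase receptor gene Plaur by 1.69, the cyclin D1 gene Ccnd1 by 1.02, the hyaluronan receptor gene Cd44 by 0.72 and Myc by 0.67. Fosl1, Plaur, Ccnd1 and Myc are also known as genes that MAP kinase signalling induces, so they are not readouts of beta-catenin alone. The cause of the rises and falls in this list was not tested. Targets that act in the WNT pathway themselves were divided. Notum and Rnf43, described above and also on this list, rose by 0.78 and 0.56, while Apcdd1 and Znrf3 fell by 1.99 and 0.41. The feedback targets Nkd1 and Sp5 had changes of 0.05 and 0.04 and did not pass, as with Axin2, Lgr5 and Lef1, which also belong to this list. Sp5, Axin2, Lgr5 and Lef1 had means below that of the median probe set, and Nkd1 lay just above it, so a change would be harder to detect.

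**Figure D3:**
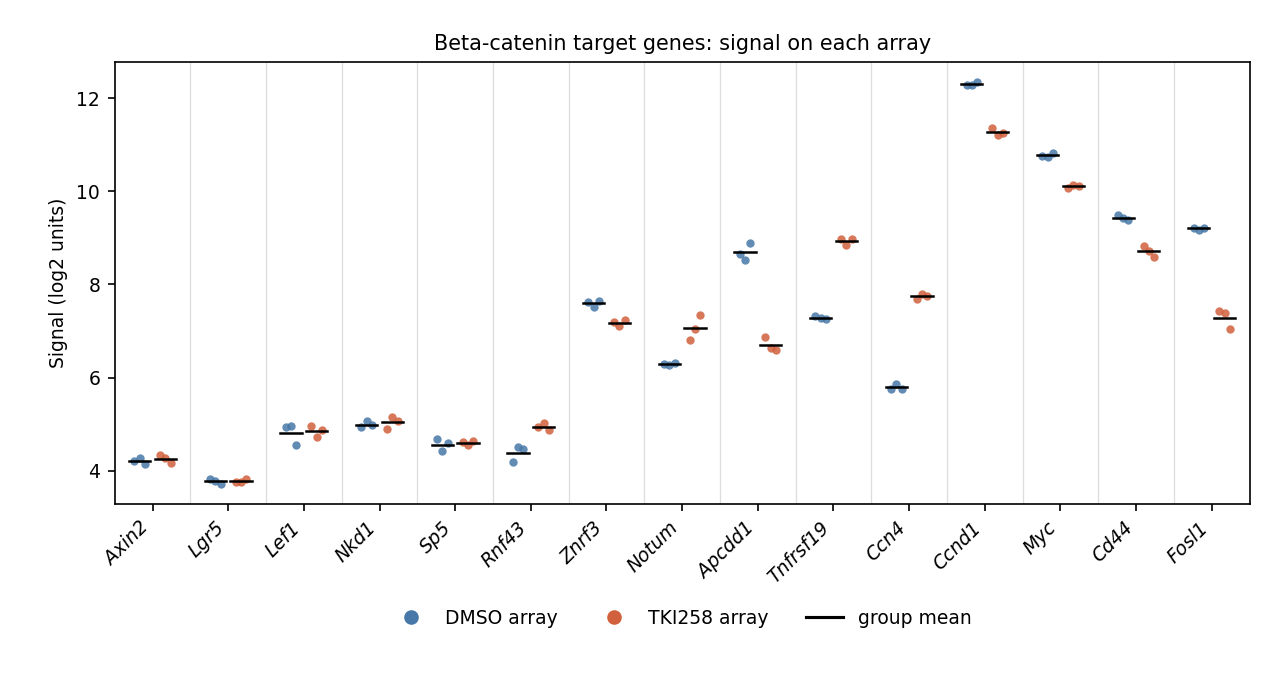
Signal in log2 units (vertical axis) of 15 genes of the beta-catenin target list on each DMSO array (blue) and TKI258 array (red), with black bars for group means; these 15 were picked with their values known. Axin2, Lgr5, Lef1, Nkd1 and Sp5 show overlapping groups, Tnfrsf19, Ccn4, Notum and Rnf43 are higher with TKI258, and Znrf3, Apcdd1, Ccnd1, Myc, Cd44 and Fosl1 are lower.

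Of 40 genes of the noncanonical and planar polarity branches 7 rose and 3 fell, 25% called against 27% of all genes, with a median of 0.04. Of the 40, 11 had a mean below that of the median probe set, and 44.2% of genes brighter than it were called. Among the genes of this list given here, which do not include its largest change, the WNT5A receptor gene Ror1 rose by 0.48, the co-receptor gene Ptk7 by 0.35, the ciliary polarity genes Wdpcp and Invs by 0.57 and 0.32, and the JNK gene Mapk8 fell by 0.32. Without DMSO replicate 1, 6 genes of this list were called, against 10.

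**Figure D4:**
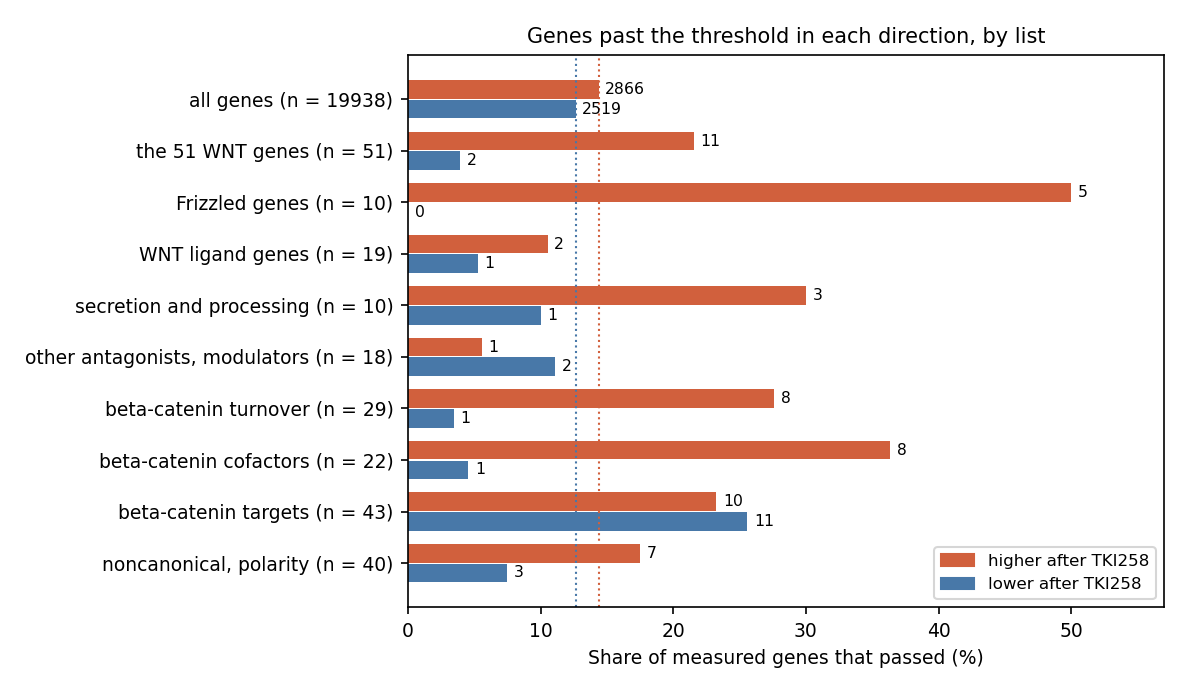
Share of measured genes that rose (red) or fell (blue) in each WNT gene list, in percent, with the number of genes beside each bar and dotted lines at the shares over all 19938 genes, 14.4% and 12.6%. Frizzled genes have 5 of 10 higher and 0 lower, and beta-catenin targets have 10 higher and 11 lower of 43.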

How the data were processed

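Deposited log2 values of 35557 probe sets on 6 arrays were used. The submitters' processing notes name RMA, affy and limma but give no version or role. RMA as usually run shrinks changes of dim probe sets and hides a shift shared by all genes. The scale of the deposited log2 values was taken from their range and near-equal quartiles. Gene symbols came from GEO's platform annotation of 2016, and the 21789 probe sets with 1 symbol were kept; 1621 had several and 12147 none. All 51 members were found by gene ID in the GRCm38.p6 gene table, with 0 symbols changed. The number of arrays limits the precision.

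The groups were compared by limma 3.58.1 (R 4.3.3; lmFit and eBayes), treatment as the only term, no filter, two-sided p-values and Benjamini-Hochberg adjustment over all genes at 0.05. Log2 changes are TKI258 minus DMSO with the moderated standard error (SE), 3 arrays per group, from individual dishes. The test was checked on simulated data. The members and lists were chosen with earlier results of these data known. Members past the threshold are given on each array, the others by range and count, with values for Axin2, Lgr5, Lef1, Porcn, Znrf3, Rnf43 and the brightest member of each role. Of each other list up to 6 genes with the smallest adjusted p among those that passed are named, plus Ctnnb1, Wls, Ccnd1, Myc and Cd44. Of the noncanonical list, 1 gene that this rule names is not reported here. Further genes named (among them Bcl9, Tle1, Tcf7l2, Nkd1, Sp5 and members that missed the threshold) were picked after their values were seen, as were the motifs other than TCF/LEF and the promoters shown. Alternatives were a replicate block, each array left out, quantile normalization again, median centring, a filter on dim genes, other probe set summaries, other variance models, array weights, a threshold of 0.01 and a test against a fold of 1.2.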

Additional observations from a re-analysis of the deposited data

How the results depend on the processing

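Direction under the alternatives was followed for the members and for the list genes named by rule. There were 17 alternatives, and 16 for dim genes, which the filter leaves out. Of the genes followed, 0 changed direction while called, and 5 of the 13 called members (Lgr4, Fzd1, Fzd2, Porcn and Wnt7b) stayed past the threshold in all 17. Among the 38 members not called, 5 (Wnt3, Dkk4, Fzd4, Wnt16 and Wnt8a) passed in at least 1 alternative. Against a fold of 1.2, 4 members rose and 1 fell, 2 Frizzled genes rose, 1 ligand gene was called, 17 listed genes rose, and 1057 of all genes rose and 864 fell; 1 gene of the beta-catenin turnover list, 4 of the cofactor list and 2 of the noncanonical list were called. Without moderated variance 6 members and 3 Frizzled genes rose and 1 ligand gene was called. With median centring 4 members fell. With array weights 4 members fell and 5 ligand genes were called. With trend and robust variance 7 secretion genes were called. At an adjusted p below 0.01, 3 turnover and 5 noncanonical genes were called. The cause was not tested, except that a stricter threshold or a fold to exceed calls fewer genes by construction. Leaving out each array gave 9 to 11 members higher and 2 to 4 lower, 4 to 6 turnover genes called and 6 to 10 noncanonical genes called. Same-numbered arrays deviated together only weakly, with correlations of 0.02, 0.05 and 0.15, and not every array correlated best with its own number, so the numbers were not taken as pairs. With the replicate number as a block, 10 members rose and 2 fell, Wnt10a losing its call (adjusted p = 0.0993), and 2877 of all genes rose and 2487 fell. With 3 arrays per group and no detection calls, small changes in dim genes such as most DKK, SFRP and R-spondin members cannot be resolved.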
